A study of Drosophila melanogaster with 2 samples.

Results

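The 10 genes described here encode RNA-binding proteins that set splicing or mRNA fate in particular fly tissues: mbl, bru1, Rbfox1, sm, how, elav, fne, Syp, heph and msi. They were taken by name from the Ensembl BDGP6 annotation, all 10 were found, and they are 10 of 13945 protein-coding genes on the 6 chromosome arms that hold regions. Each gene was given a window from 2000 bp upstream of its annotated 5' end to its 3' end, and a region was assigned to a gene when its summit, the authors' point of strongest signal, lay in that window. The study has 1 group of 2 biological replicates. Both are chromatin from whole pupae (Drosophila melanogaster, age 48 h, sexes mixed) of a single transgenic line that stably carries CG8301 with GFP at its C terminus. The antibody label names CG8301, but each library is also described as an input control, so the regions are described as regions of these libraries and not as binding sites of the fusion protein. There is no untreated or second group in the lists, and whole pupae mix all cell types, so a region cannot be placed in the muscle, neuron or other cell in which a gene is active.

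Splicing regulators of this kind bind short RNA motifs in pre-mRNA and choose which exons enter the mRNA, while related proteins act on mRNA stability, transport or translation. Muscleblind (mbl), Bruno 1 (bru1), Rbfox1 and Held out wings (how) act in developing muscle, ELAV (elav), Found in neurons (fne), Musashi (msi) and Syncrip (Syp) in the nervous system, and Smooth (sm) and Hephaestus (heph) are the fly relatives of hnRNP L and of the polypyrimidine tract-binding protein. Muscle and adult neurons are being built in the pupa. Most of these genes are long, have several transcription starts and consist mainly of introns, so that the position of a region within the gene matters as much as its presence.

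The sequences at the strongest summits of the genes are given first, because they show what kind of DNA carries the results below. Each is the summit base with 50 bp on either side, 5′ to 3′ on the strand of the gene, on dm6, read from the RefSeq genome sequence. Capitals mark matches to any of 8 motifs searched on both strands, named further below. The set holds the strongest summit of each gene for which one can be shown, plus a second summit of Syp and one of msi that were added after their motif matches had been seen.
elav, chrX:523448-523548, promoter, minus strand: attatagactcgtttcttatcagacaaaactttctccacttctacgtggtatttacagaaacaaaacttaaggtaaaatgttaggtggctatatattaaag
msi, chr3R:25515835-25515935, promoter, plus strand: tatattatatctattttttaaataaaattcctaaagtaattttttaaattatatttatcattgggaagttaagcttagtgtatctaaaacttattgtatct
heph, chr3R:31941729-31941829, intron, minus strand: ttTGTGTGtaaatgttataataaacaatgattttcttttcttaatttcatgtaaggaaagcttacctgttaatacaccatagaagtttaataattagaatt
Syp, chr3R:20782256-20782356, intron, plus strand: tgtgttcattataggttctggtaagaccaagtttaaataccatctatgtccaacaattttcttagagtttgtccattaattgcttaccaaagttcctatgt
Syp, chr3R:20778647-20778747, internal promoter, plus strand: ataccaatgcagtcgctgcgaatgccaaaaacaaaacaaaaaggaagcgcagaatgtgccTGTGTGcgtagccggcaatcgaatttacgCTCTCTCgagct
Rbfox1, chr3L:10554682-10554782, intron, plus strand: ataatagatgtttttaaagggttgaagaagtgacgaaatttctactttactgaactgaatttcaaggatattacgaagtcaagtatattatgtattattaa
how, chr3R:22049255-22049355, intron, plus strand: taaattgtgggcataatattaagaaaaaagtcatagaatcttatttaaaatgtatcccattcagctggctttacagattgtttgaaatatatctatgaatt
msi, chr3R:25555510-25555610, intron, plus strand: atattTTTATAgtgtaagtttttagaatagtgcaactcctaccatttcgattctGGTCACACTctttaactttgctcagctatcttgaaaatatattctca
Most of these windows are rich in A and T. Over all 43 summits of the genes the median GC content was 30.7% (quartiles 25.7% and 36.1%), and over all summits of the IDR list, defined below, it was 30.7% as well (quartiles 25.7% and 35.6%). The Syp internal promoter stood apart with 48.5% GC, and the msi promoter was the poorest of those printed with 16.8%.

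The lists that give the values are 4 in number. The authors deposited 30000 regions for each replicate, 30000 for both replicates pooled, and a shorter list that passed their irreproducible discovery rate threshold, called the IDR list below. The lists of 30000 are labelled as peaks and background, the input to that threshold, so their weaker regions may be background. The IDR list is the strongest 26.7% of the pooled list, region for region, so a region has the same rank in both. For each replicate, as many of its strongest regions as the IDR list holds are called its strongest regions. Signal values are the authors' own on a scale that is not stated, so ranks within a list are given, with rank 1 the strongest. Read depth is unknown, no test between the 2 replicates was made, and shares carry exact 95% binomial intervals for the counting of regions only.

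The 10 windows held 43 IDR summits and 222 pooled summits in 946 kb. That was 0.0454 IDR summits per kb, against 0.0599 per kb over the 6 arms, and 0.235 pooled summits per kb, against 0.224 per kb over the arms. The pooled summits outside the IDR list came to 0.189 per kb in the windows, against 0.165 per kb over the arms. In the windows 19.4% of the pooled regions were in the IDR list (interval 14.4 to 25.2), against 26.7% of all pooled regions. In 8 of the 10 genes at least 1 IDR summit was present. Over all protein-coding genes that share was 27.6%, but it depends on length, and among the 1455 genes with windows of at least 15992 bp, the length of the shortest of the 10, it was 66%. Summed over the windows of those 1455 genes, there were 0.0692 IDR summits and 0.272 pooled summits per kb. Sequence and summits shared by overlapping windows were counted once for each window. The median gene of the 1455 had 0.0512 IDR and 0.253 pooled summits per kb. All of these values were above the densities of the 10 genes, a difference that was not tested.

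**Figure D1:**
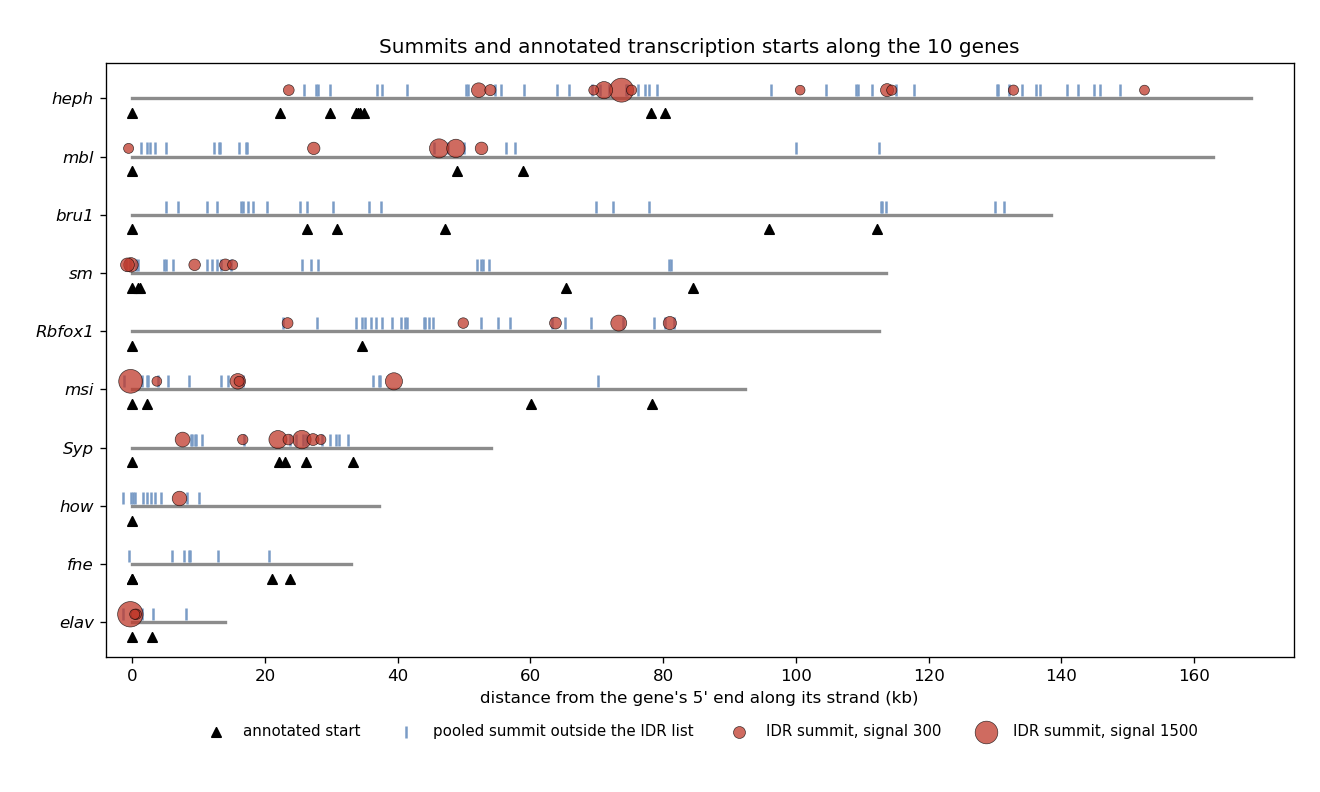
Positions of summits along the 10 genes, drawn from each gene's 5' end in kb along its strand; triangles are annotated starts, blue ticks pooled summits outside the IDR list, and red circles IDR summits with area growing with the authors' signal value. The largest circles are at the first starts of elav and msi and in an intron of heph, and bru1 and fne have ticks but no circle.

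Introns held most of the summits. By the order promoter, exon classes, intron and intergenic, 33 of the 43 were intronic (76.7%, interval 61.4 to 88.2), against 49.2% of the other IDR summits. That class puts summits near any annotated start under promoter. Counted by sequence alone, 37 of the 43 lay in the genes' own introns (86.0%, interval 72.1 to 94.7), and own introns make up 86.5% of the windows, so the introns held about the share that their length gives. No IDR summit of the 10 genes lay in an exon outside the 500 bp around a start (0 of 43 in each exon class, upper bound 8.22%). These classes were rare over all IDR summits as well: 0.612% 5' UTR, 0.0874% coding exon, 0.812% 3' UTR and 1.11% noncoding exon. Outside the IDR list, 151 of 179 pooled summits were intronic (84.4%, interval 78.2 to 89.3), against 51.7% over all pooled regions outside that list. The latter share covers the whole arms, while own introns make up 86.5% of the windows, so these shares are not matched.

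Relative to length, none of the 10 genes had significantly more or fewer IDR summits than expected. A 2-sided exact binomial test of each gene's summits against its share of the sequence, adjusted over all 13945 genes by the Benjamini-Hochberg method, called 0.531% of all genes as having more and 0.0717% as having fewer. None of the 10 was among them, and 1 of the 10, bru1, had an unadjusted p under 0.05. The ratio of observed to expected summits was 3.13 at elav and 2.09 at Syp (exact adjusted p = 1 for both). It was 1.17 at heph, 0.885 at msi, 0.728 at Rbfox1, 0.722 at sm, 0.506 at mbl and 0.427 at how (exact adjusted p = 1 for each). With the small expected numbers of the shorter genes (0.958 summits at elav, 2.34 at how) such ratios rest on few summits. Windows of neighbouring genes overlap and summits cluster, so the tests are not independent of each other.

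**Figure D2:**
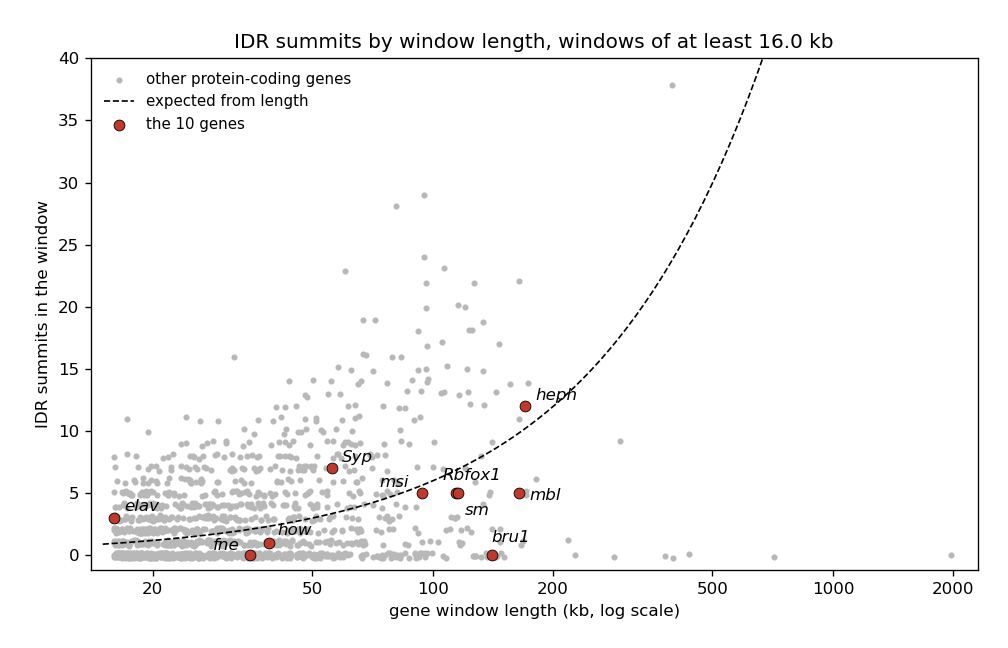
IDR summits in the window (vertical axis) against window length in kb (log scale) for the 10 genes in red and the other protein-coding genes with windows at least as long as the shortest of the 10 in grey, shifted slightly at random in height so that points do not hide each other; the dashed line is the number expected from length. The genes elav, Syp and heph lie above the line, while bru1 lies at 0 among other long genes at 0.

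Transcription starts were the next question, since each of the genes except how has more than 1. The annotation gives 41 starts, and 6 of them had an IDR summit within 500 bp, against 15.4% of all starts of protein-coding genes. These 6 starts belonged to 5 of the 10 genes: mbl, sm, elav, Syp and msi. The share of all protein-coding genes with such a summit was 16.2%, and among genes with windows as long as these it was 32.2%. All 10 genes had a pooled summit within 500 bp of a start, against 31.6% of all protein-coding genes. That share was not computed for genes of this length or number of starts, so the 2 values are not matched. At heph, bru1 and Rbfox1 the best of these summits were weak, at pooled ranks 17720, 14851 and 14428, and may be background. A further 13 of the 41 starts had a pooled but no IDR summit, and 22 had neither.

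Where a gene had several starts, at most 2 of them had an IDR summit. Of 9 starts of heph, none had an IDR summit, and at mbl, sm, elav and msi 1 start each did. At sm it was the most upstream start, which serves 10 of 21 annotated transcripts. At elav and msi it was the most upstream start as well, which serves 3 of 4 and 4 of 7 transcripts. At mbl it was the second of 3 starts, 48969 bp into the gene, which serves 13 of 19 transcripts. At Syp it was the second and the third of 5 starts, 22166 and 23052 bp into the gene, which serve 3 and 1 of 20 transcripts.

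Of the 7 promoter summits, 5 lay upstream of the start, at distances bounded by the 500 bp limit that defines them. In transcript orientation they were at -177 bp from the start at sm, -192 bp at mbl, -198 bp at Syp, -233 bp at msi and -272 bp at elav. The 2 others were downstream, at 393 bp in elav and 487 bp near the third start of Syp, and both were weak, at IDR ranks 6931 and 5610. Summits just outside the 500 bp limit were found at -535 bp from the first start of mbl, 605 bp from the first start of elav, -677 bp from the start of Syp at 26254 bp, and -703 bp from the first start of sm. They are counted as intronic or upstream.

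Among the neuronal genes, elav had the strongest summit and the highest density. ELAV is the pan-neuronal RNA-binding protein whose presence is the usual mark of a fly neuron. The gene (FBgn0260400) spans chrX:509235-523226 on the minus strand with 13992 bp, and 23.4% of it is intron. Its promoter summit ranked 160 in the IDR list with a signal of 1930, rank 81 in replicate 1 and rank 244 in replicate 2. It is the best rank of any of the 43 summits. The start of the noncoding RNA gene lncRNA:enrr lies at the same distance from that summit, 272 bp, and the summit also lies inside arg, the arginase gene on the other strand, so the annotation does not assign it to elav alone.

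The other elav summits were less reproducible. The summit 605 bp into the gene ranked 6177 in the IDR list and 4907 in replicate 1, and replicate 2 had no overlapping region. The summit at 393 bp ranked 14163 in replicate 1 and 5865 in replicate 2. The regions of these summits overlap each other, and both summits also lie inside arg and lncRNA:enrr. The density of elav, 0.188 IDR summits per kb, thus rests on 3 summits of which 1 was among the strongest regions of both replicates, and each replicate had 2 summits of its strongest regions in the window. The second start of elav, 2941 bp into the gene, had only a pooled summit of rank 21525.

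The gene fne (FBgn0086675, chrX:12917477-12950417, plus strand) encodes a second ELAV family protein of neurons, and unlike elav it had no IDR summit. Its strongest pooled region lay at -479 bp from the first start and ranked 8682, close below the IDR limit, with rank 9048 in replicate 1 and rank 9319 in replicate 2. The other 6 pooled summits ranked between 11035 and 27121. The nearest IDR summits lay 7750 bp upstream of the gene and 136995 bp beyond its end. A count of 0 is common at this length: 178 of the 594 genes with windows at least as long (30.0%) had none, and 2.09 summits were expected (exact adjusted p = 1).

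At msi (FBgn0011666, chr3R:25516118-25608423, plus strand), whose protein acts in asymmetric division of sensory organ precursors, the promoter summit ranked 230 with a signal of 1664. Its ranks were 228 in replicate 1 and 274 in replicate 2. The other 4 IDR summits were all in the third intron, 44.4 kb long, between 3721 and 39442 bp into the gene, and their IDR ranks were 1123, 1576, 7008 and 7803. Those at ranks 1576 and 7008 are 202 bp apart and share 1 region of 607 bp, so they are not separate regions. In replicate 2 a single summit, at rank 1644, matched both. The summit at rank 1123 is the one whose window is printed above with the letters GGTCACACT. The other 3 starts of msi had no IDR summit, and at the second start a pooled region of rank 12497 was centred at -1 bp.

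Syp had 7 IDR summits, the most per kb after elav (0.125 per kb), and 22 pooled summits. Syncrip is an hnRNP Q/R relative that acts in neural stem cells and at the neuromuscular junction. The gene (FBgn0038826, chr3R:20756729-20810726, plus strand) is 54.0 kb long, and its summits gathered around its internal starts: 5 of the 7 lay between 21968 and 28436 bp from the 5' end, and the starts there are at 22166, 23052 and 26254 bp. The leading 2 were at 25577 bp, or -677 bp from the last of these starts (IDR rank 831, ranks 716 and 947 in replicates 1 and 2), and at the second start (IDR rank 906, ranks 751 and 1063). The next, in the first intron at 7601 bp, ranked 1863, with 1839 and 1831 in the replicates. The first start of Syp, which serves 7 of 20 transcripts, had no summit within 500 bp in any list, and 7601 bp was the distance to its nearest pooled summit.

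The weaker Syp summits differed between replicates. The summit at the third start ranked 5610 in the IDR list, 3736 in replicate 1 and 8623 in replicate 2. The summit 2182 bp downstream of the start at 26254 bp ranked 7018, with 5132 in replicate 1 and 9909 in replicate 2. Of the strongest regions of each replicate, Syp had 9 in replicate 1 and 6 in replicate 2.

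In the muscle group, mbl showed a pair of strong summits upstream of its second start. Muscleblind is a zinc finger splicing regulator of muscle and photoreceptors, and its gene is known for an abundant circular RNA. The gene (FBgn0265487, 2R, 17216549 to 17379376, plus strand) is 162828 bp long. The strongest summit lay at -2734 bp from the second start, in the second intron, and within 500 bp of the start of lncRNA:CR45997. Its IDR rank was 714, with 775 in replicate 1 and 670 in replicate 2. The promoter summit at the second start ranked 853, with 1395 in replicate 1 and 659 in replicate 2. Further summits at 3673 bp and -21605 bp from that start ranked 3271 and 3453. The summit at -535 bp from the first start ranked 7124, and replicate 1 had no overlapping region.

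The intron behind the last start of mbl was nearly empty. This intron, of 75030 bp, the longest intron of the 10 genes, held no IDR summit and 2 pooled summits, 0.0267 per kb. The second intron of 45.4 kb held 3 IDR and 12 pooled summits, 0.264 pooled summits per kb. The full replicate lists differed at mbl: 8 of the 30000 regions of replicate 1 had their summit in the mbl window and 33 of those of replicate 2, while of the strongest regions of each replicate it was 4 and 5.

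Rbfox1 (FBgn0052062, chr3L:10481412-10594012, plus strand), which encodes a splicing factor of muscle and neurons, had 5 IDR summits and none near either of its starts. All were intronic. An intron of 49.8 kb behind the second start held 4 of them and 23 pooled summits, at 0.0803 IDR summits per kb. They lay 15297, 29193, 38729 and 46427 bp downstream of the second start. The strongest, at 38729 bp, ranked 1435 in the IDR list, 1360 in replicate 1 and 1556 in replicate 2. The next, at 46427 bp, ranked 2718, but 5902 in replicate 1 and 1959 in replicate 2. At the second start itself, which serves 7 of 9 transcripts, the best pooled region ranked 14428 and lay 22 bp downstream.

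Held out wings is a STAR family RNA-binding protein of tendon, muscle and glia. Its gene (FBgn0264491, chr3R:22042191-22079321, plus strand) had 1 IDR summit, in the second intron 7114 bp downstream of its only start. It ranked 2000, with 2477 in replicate 1 and 1816 in replicate 2. Within 500 bp of the start the IDR list had no summit, while the pooled list and both replicate lists had 3 weak ones each, and the best ranked 10335 in the pooled list, 8135 in replicate 1 and 13650 in replicate 2. Of the 30000 regions, replicate 1 had 25 summits in the how window and replicate 2 had 11. All 12 pooled summits lay in the first 10049 bp or upstream, while the gene is 37131 bp long.

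The longest of the 10 windows without an IDR summit was that of bru1, which encodes a CELF family protein of flight muscle and of translational control in the ovary. The gene (FBgn0000114, chr2L:12175004-12313438, plus strand) has 6 starts and 19 introns, and its window of 140 kb held no IDR summit where 8.41 were expected from length (exact adjusted p = 0.0664, unadjusted p = 0.000443, 2-sided). Whether this passed depended on the setting. With windows from 5000 bp upstream the adjusted p was 0.0497 and with coding exons left out of all lengths 0.0262, while with the strongest 50% of the IDR list it was 1. With replicate 2 left out it was 0.0657, and with replicate 1 left out it was 0.291, where 1 summit lay in the window. The lists that include background had regions there all the same, 22 in the pooled list, 13 in replicate 1 and 26 in replicate 2. The strongest, in the first intron, ranked 8247 in the pooled list, 8800 in replicate 1 and 8465 in replicate 2. The next, 5076 bp into the gene, ranked 9788 in the pooled list and 7812 in replicate 2, with no overlapping region in replicate 1.

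Of the 22 pooled summits at bru1, 11 were in the first intron of 25.9 kb, at 0.425 per kb, and an intron of 18.5 kb had none. The only start with a pooled summit within 500 bp was the second, where it ranked 14851. Just outside that limit, pooled summits lay at 546 bp from the sixth start (rank 10098) and at -562 bp from the third (rank 20709). The nearest IDR summits lay 51643 bp upstream of bru1 and 100672 bp past its end, which makes a stretch of 291 kb without an IDR summit. It ranked 11 by length among 7999 distances between neighbouring IDR summits, whose median was 4493 bp, and it also takes in bru2. Of the 33 genes with windows at least as long as that of bru1, 13 (39.4%) had no IDR summit. That count includes bru1 itself and bru3, a relative described below. Others of the 13 have far longer windows, such as Myo81F (1967857 bp) and Pzl (711421 bp), and their genomic surroundings were not compared.

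The hnRNP relative heph had the most summits of the 10 genes. Hephaestus is the polypyrimidine tract-binding protein of the fly, with roles in wing margin Notch signalling and sperm individualization. The gene (FBgn0011224, chr3R:31846987-32015520, minus strand) is 169 kb long with 9 starts and 30 introns. It had 12 IDR and 53 pooled summits, 0.0704 and 0.311 per kb. All 12 IDR summits were intronic and fell in 6 introns.

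The strongest heph summit, in an intron of 8229 bp, at -4387 bp from the start 78128 bp into the gene, had a signal of 1698 and ranked 218, with 242 in replicate 1 and 241 in replicate 2. A second one in the same intron, at -7024 bp from that start, ranked 1115, with 1152 and 1086. This intron held 3 IDR and 10 pooled summits, 1.22 pooled summits per kb. The next was a summit in an intron of 10628 bp at rank 1965, with 1918 and 1999 in the replicates. An intron of 39.8 kb held 4 IDR summits, of which the best ranked 2876, and 3 of the 4 were not among the strongest regions of replicate 1. Of the 9 starts only those at 29752 and 78128 bp had a pooled summit within 500 bp, at ranks 17720 and 18503, and the start at 29752 bp serves 14 of 25 transcripts. The first intron, of 21.1 kb, had no pooled summit.

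Smooth, the hnRNP L relative, is needed for chemosensory axon growth and muscle. Its gene (FBgn0003435, 2R, 19517864 to 19631508, minus strand) had 5 IDR summits, all in the first 15142 bp or just upstream. The promoter summit at -177 bp ranked 2041, with 2186 in replicate 1 and 1463 in replicate 2. A second summit at -703 bp ranked 2410, with 3584 and 1596. Those of an intron of 27.5 kb ranked 4132, 4455 and 6907, and the last had rank 3589 in replicate 1 but 11348 in replicate 2. The rest of the gene, which includes 2 starts at 65341 and 84437 bp, had no IDR summit.

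Long introns held summits in about the proportion of their length. The annotation leaves 143 stretches between exons in the 10 genes, called introns here, and 21 of them are over 10 kb and make up 68.3% of the intron sequence. Of these 21, 10 held an IDR summit and 17 a pooled summit, and they held 24 of the 37 IDR summits that lay in intron sequence (64.9%, interval 47.5 to 79.8). Among the other 122 introns 8 held an IDR summit. Intronic summits more than 500 bp from an own start had a median distance of 12052 bp to the nearest own start, with a range of 605 to 72183 bp. Neighbouring IDR summits of 1 gene were 202 to 28624 bp apart with a median of 4632 bp, and 12 of 35 such distances were under 2 kb.

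**Figure D3:**
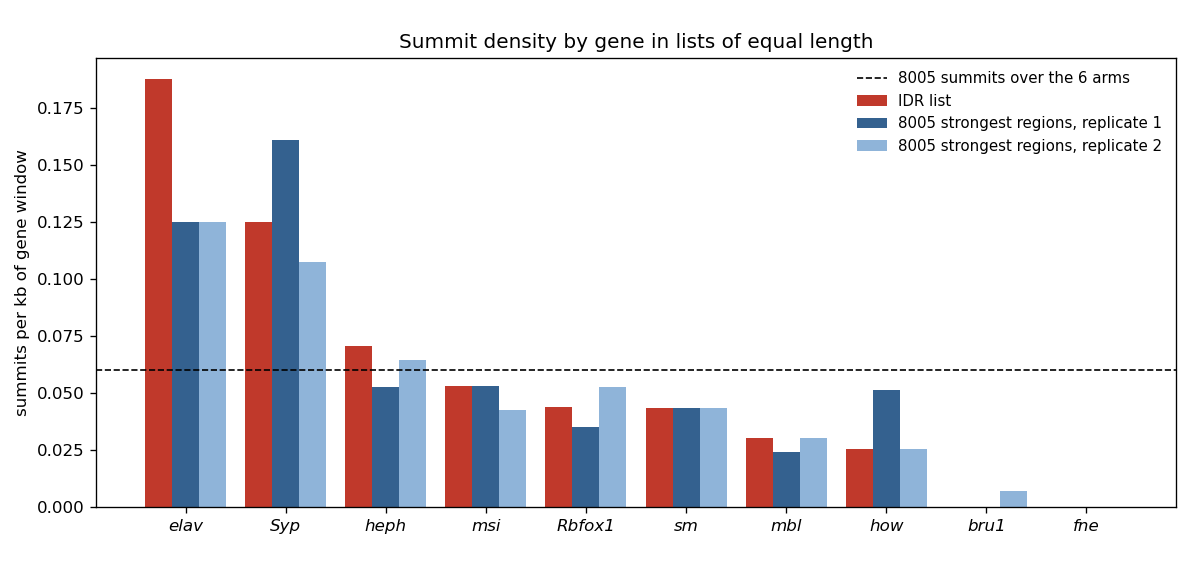
Summits per kb of gene window in the IDR list (red) and in the strongest regions of replicate 1 (dark blue) and replicate 2 (light blue), lists of equal length, with the density of as many summits over the 6 arms as a dashed line. In all 3 lists elav and Syp lie above the line, heph lies near it, and the other 7 genes lie below it.

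The replicates agreed on the leading genes and less on the weak summits. Of the strongest regions of each replicate, the windows held 40 summits in replicate 1 and 41 in replicate 2, and elav and Syp had the highest densities in both. Of the 43 IDR summits, 30 were matched by a strong region in replicate 1 and in replicate 2 alike (69.8%, interval 53.9 to 82.8), against 77.9% of the other IDR summits (77.0 to 78.8). A further 5 met this in replicate 1 alone and 8 in replicate 2 alone. The IDR list was derived from these lists, so the share is not independent of them. Summit positions differed from the IDR summit by a median of 14.5 bp in replicate 1 and 15 bp in replicate 2.

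**Figure D4:**
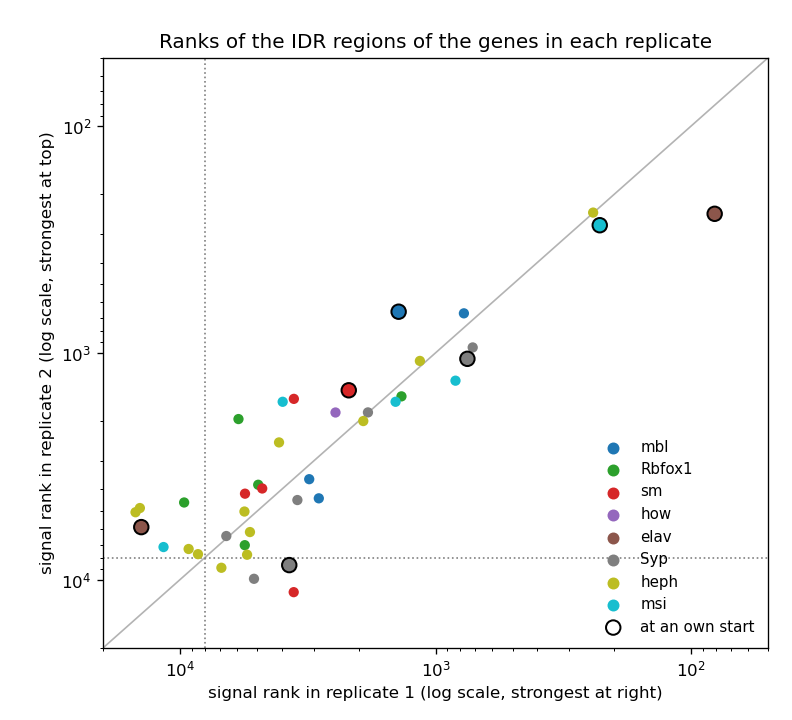
Signal rank of the overlapping region in replicate 1 (horizontal) and replicate 2 (vertical), log scales with the strongest at the upper right, for the IDR regions of the genes that have a region in both lists; colours are genes, black rims mark summits within 500 bp of an own start, and dotted lines mark the rank at which the IDR list ends. The summits of elav, msi and heph at IDR ranks 160, 230 and 218 stand at the upper right, and the points past a dotted line all have IDR ranks of 5366 or beyond.

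In strength the summits were ordinary members of the list. Their median rank percentile was 49.2 on a scale where 100 is the strongest, against 50.01 over all IDR regions, and 4 of the 43 (9.30%) were among the strongest 10%. The median region width was 370 bp, against 307 bp over the list. The best rank of a gene differed more, from 160 at elav, 218 at heph and 230 at msi through 714 at mbl, 831 at Syp and 1435 at Rbfox1 to 2000 at how and 2041 at sm.

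The 8 motifs were searched within 50 bp of each summit on both strands. GAGAG is the core of GAGA factor sites, and the repeat CACACA was searched beside it. The DNA replication-related element is TATCGATA, and the M1BP promoter motif was searched as GGTCACACT. The E-box was searched as CACGTG, the Zelda site as CAGGTAG, the AP-1 site as TGANTCA and the TATA box as TATAAA. No letters of one motif are contained in another. Of the 43 windows 30 held none. TATAAA was in 8 (18.6%, against 23.8% of all IDR windows), GAGAG in 4 (9.30% against 9.33%) and CACACA in 3 (6.98% against 6.63%). GGTCACACT was in 1 window, the msi intron printed above, against 0.225% of all IDR windows. The other 4 motifs had no match within 50 bp. Over all IDR windows their shares were 0.300% for TATCGATA, 0.437% for CACGTG, 0.312% for CAGGTAG and 2.82% for TGANTCA. These are matches of letters, not sites.

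A list of 56 other splicing and RNA-binding genes gives the wider family, and 53 of its names matched the annotation. Of these 53, 30 had an IDR summit in the window (56.6%) and 21 had a promoter summit (39.6%), against 27.6% and 16.2% of all protein-coding genes. These shares were not matched for window length, on which they depend. The median window of the list was 7.74 kb, and the longest reached 283 kb at bru3. Together the windows held 95 IDR summits, 0.0667 per kb, against 0.0599 per kb over the 6 arms. The strongest promoter summits were at shep (signal 1328), which encodes a neuronal RNA-binding protein, at the CPEB gene orb2 (signal 1151), at Unr (signal 846), a partner in dosage compensation control, and at the CPEB gene orb (signal 776). Among the genes of the list with at least 3 IDR summits, the densest were brat (0.271 IDR summits per kb), a translational repressor of neural stem cells, Sxl (0.157 per kb), the sex determination switch, mub (0.122 per kb) and ps (0.101 per kb), the Nova relative.

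The same exact binomial test called 1 gene of the list as having more summits, brat, with 13 where 2.87 were expected (exact adjusted p = 0.00864), and 1 as having fewer. The gene with fewer was bru3, with none where 16.98 were expected (exact adjusted p = 9.64e-05), and it was singled out after its value was seen. All 3 CELF family genes thus had no IDR summit: bru1 in 140 kb, bru2 in 55.3 kb and bru3 in 283 kb. Of the 1455 genes with windows of at least 15992 bp, 34.0% had none, and of the 33 at least as long as bru1, 39.4%. At bru2 3.31 summits were expected (exact unadjusted p = 0.0728, 2-sided binomial test), and it was not called. The 3 genes differed in weak regions, with 22 pooled summits at bru1 (0.157 per kb), 14 at bru2 (0.253 per kb) and 1 at bru3 (0.00353 per kb). Since bru1 and bru2 lie in the same stretch without IDR summits, they are not separate observations. Relatives of the other genes differed. Rbp9, the third ELAV family gene, had 2 IDR summits and Rbp6, the Musashi relative, had 6, where 0.939 and 10.9 were expected (exact adjusted p = 1 for both). Of the qkr genes, STAR family relatives of how with short windows, qkr54B had 1 IDR summit and qkr58E-1, qkr58E-2 and qkr58E-3 had none.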

How the data were processed

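The members and gene lists were chosen with earlier results of these data known. Per the deposited text files, the authors called regions on dm6 from the alignments of each replicate and of both together, each with a further input file, and derived the IDR list from those 3 lists. Which caller, aligner and cutoff they used was not given in the sources used here. Each region's deposited signal value and the authors' summit offset in bp, the other value used, were taken as they stand. Genes came from Ensembl release 115, whose start codons read ATG in the RefSeq sequence in 99.8% of 30593 cases. Transposable elements were left out.

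Computed here with Python 3.11.15, pandas 2.3.3 and SciPy 1.17.1 were ranks by signal, windows from 2000 bp upstream, promoters within 500 bp of a start, and overlaps of at least 1 bp. The per-gene exact binomial test took sequence outside gaps, doubled the smaller tail and used a threshold of 0.05 over all protein-coding genes. It was also run on simulated counts drawn independently for each gene from binomial distributions, the model that the test assumes. Those counts had no clustered summits or shared windows, so they cannot show how the test behaves with either. Introns are stretches between merged exons, numbered from the 5' end. The text names all 10 genes, their summits at starts and their leading 3 summits, and, of the other list, the 4 densest with at least 3 summits and the 4 strongest promoters. The other list's names RSF1, nos and kep1 matched no gene name and were not used. Sequences of 2R genes are not printed. The alternatives were other region lists, windows, lengths, overlaps and motif windows.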

Additional observations from a re-analysis of the deposited data

How the results depend on the processing

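With only the strongest 50% of the IDR list the windows held 21 summits in place of 43, and 100% of these overlapped the strongest regions of both replicates, in place of 69.8%. With all regions of each replicate allowed, that share was 95.3%, and with a reciprocal overlap of at least 50% it was 58.1%. GAGAG was within 100 bp of 23.3% of the summits (22.3% of all IDR summits), in place of 9.30% within 50 bp. TGANTCA, without a match within 50 bp, was within 100 bp of 6.98% of the summits (5.27% of all IDR summits). From 1 replicate alone the windows held 40 to 41 summits, 5 genes had a promoter summit with either, and the intronic share was 75 to 78.0%. No gene was called as having more summits under any of the 7 alternatives run. For bru1 the exact adjusted p over these alternatives ranged from 0.0262 to 1, with 2 of 7 under 0.05. The observed over expected ratio of heph was 0.783 with the strongest 50% and 0.881 from replicate 1 alone, in place of 1.17, and that of msi was 1.06 with the strongest 50%, in place of 0.885, with no call in any of them. The causes were not tested. Of 42 comparisons of the main values with alternatives, 38 stayed within their interval or within 1.5 times. No paired analysis was possible because the labels give 1 group. Depth is unknown, and 2 replicates give no spread for a gene's count.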
